A study of Mus musculus with 6 samples.

Results

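The tripartite motif (TRIM) family is a large group of proteins that share a RING finger, 1 or more B-box zinc fingers and a coiled coil, and that mostly act as ubiquitin E3 ligases. Its members were taken here as every gene of the deposited count table whose symbol is Trim followed by a number and at most 1 letter. This gave 67 of the 22116 named genes, and 1 further gene with such a symbol is not reported. The libraries came from 4T1, a mouse mammary gland epithelial cancer cell line, treated for 24 h either with DMSO, the solvent control, or with 10 µM P3FI-90, which the study uses as an inhibitor of the histone demethylase KDM3B. Each group held 3 libraries of 1 cell line, made from total RNA with an mRNA library kit, and no other treatment or genetic change was labelled. The study profiled these cells in asking how suppression of KDM3B promotes T cell recruitment to tumors. The labels do not say whether the 3 libraries of a group were separate cultures, so p-values measure only the spread between these libraries, which may be technical.

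An E3 ligase brings a ubiquitin-loaded E2 enzyme to its substrate, and the part of a TRIM protein behind the coiled coil decides what it binds. Most members carry a PRY-SPRY domain there, while others carry NHL repeats, a PHD finger with a bromodomain, a COS box or no recognised domain. Several members restrict viruses directly or place ubiquitin chains on the sensors and adaptors of RNA and DNA sensing, and a part of the family is itself induced by interferon. Others act on chromatin, the cytoskeleton, RNA or the cell cycle, and have no established link to immunity.

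The 6 libraries held between 31327094 and 37395732 counts on named genes. All 7 epithelial markers were detected, and all 7 were lower after P3FI-90, with a summed level of 4049 to 4264 CPM (counts scaled to the depth of the library) in DMSO and 1978 to 2072 CPM in P3FI-90. The 8 leukocyte markers summed to 10.5 to 13.2 CPM in DMSO and 12.4 to 15.7 CPM in P3FI-90, with Adgre1 at 0 in every library and Csf1r alone called higher. The muscle list summed to 107 to 122 CPM and 53.7 to 55.6 CPM, nearly all of it Tnnt2, with Myod1 and Myog at 0, and the fibroblast list summed to 37.4 to 38.1 CPM and 30.7 to 33.7 CPM, with Lum at 0. The germ cell list stayed at or below 0.241 CPM, with Ddx4, Dazl and Prm1 at 0. These are bulk samples, so fewer cells of a type and less RNA per cell cannot be told apart, and the part of these shifts in any result on TRIM genes was not tested.

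Of the 67 members, 12 had no count in any library, 11 had counts but fell below the expression filter, and 44 were tested. After P3FI-90, 20 members rose (39.9% of all genes tested were called higher) and 10 fell (39.4% of all genes were called lower) at an adjusted p under 0.05 in edgeR's quasi-likelihood test, and 14 did neither. In 30 of the 44 members all libraries of one group lay above all libraries of the other, against 81.2% of the 12288 genes tested. The share that rose was therefore near the background, and the share that fell was below it. The median log2 fold change, P3FI-90 minus DMSO, was 0.29 over the 44 members and 0.013 over all genes tested. Changes of at least 1 on the log2 scale were seen upwards in 6 members (Trim30a, Trim30c, Trim39, Trim40, Trim66 and Trim69; 12.7% of all genes) and downwards in 2 (Trim16 and Trim71; 10.6% of all genes). Summed normalized counts of the 67 members, which are counts brought to a common library size by TMM, were 52615 to 53819.9 in the DMSO libraries and 55964 to 57082 in the P3FI-90 libraries. All genes together set the scale: with total counts in place of the TMM scaling, the median of all genes moved up by 0.21, 6179 genes were called higher and 3641 lower in place of 4908 and 4841, and among the members 25 rose and 10 fell.

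The filter itself touched the upper end of this list, since it asked for a minimum count in any 3 libraries. Trim30c, Trim40 and Trim69 reached that count in all 3 P3FI-90 libraries and in no DMSO library, so they entered the test only through the group where they were high. Trim30a and Trim66 also reached it in every P3FI-90 library, but in 2 and 1 of the DMSO libraries. Among the 36 members that reached it in all 6 libraries, 15 rose and 10 fell, with a median log2 fold change of 0.14. The 11412 genes of the whole table with that property had a median of -0.021, with 39.2% called higher and 41.4% called lower. Trim43a, Trim43b and Trim62 reached it throughout neither group, and none of these 3 was called.

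**Figure D1:**
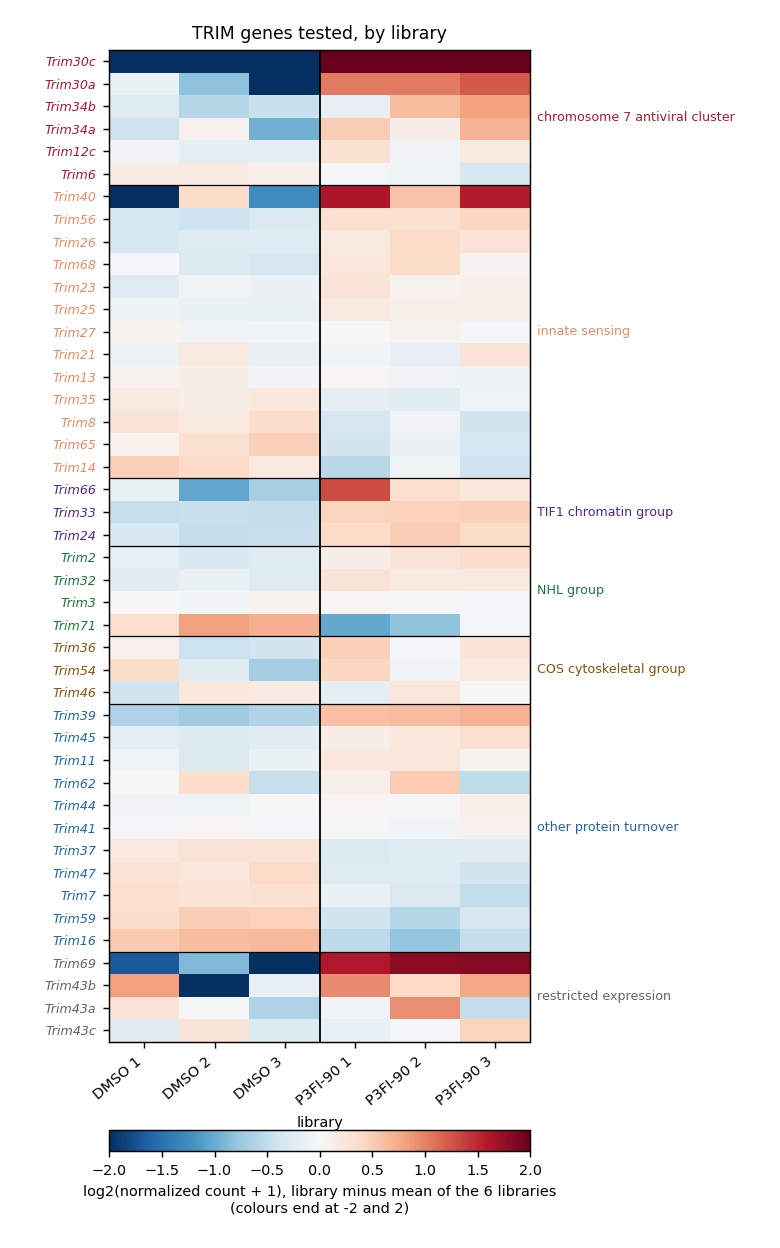
Each row is 1 of the 44 tested TRIM genes and each column 1 library, and the colour gives log2(normalized count + 1) in that library minus the mean of the 6 libraries. Rows are grouped by role, and the strongest contrasts between the 3 DMSO and the 3 P3FI-90 columns are in Trim30c, Trim30a, Trim40 and Trim69.

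Most tested antiviral TRIM genes of chromosome 7 rose. These genes lie side by side and include Trim5 and Trim12 genes, related to the human retroviral restriction factor TRIM5, and the Trim30 and Trim34 genes, of which Trim30a is known to restrain NF-κB signaling by directing degradation of TAB2 and TAB3. In the RefSeq annotation of GRCm38.p6 their order is Trim6, Trim34a, Trim5, Trim12a, Trim34b, Trim12c, Trim30b, Trim30c, Trim30a and Trim30d. Of the 10 genes, 6 were tested, and 5 rose while none fell, with a median log2 fold change of 0.88. Of all genes tested, 39.9% were called higher and 39.4% lower. The median was 0.59 among those with at least 10 counts in every library, and Trim30c entered the test only through its P3FI-90 libraries. Trim30a reached the filter's count in 2 DMSO libraries and in all P3FI-90 libraries. The calls on Trim12c and Trim34a were lost in 7 and 5 of 15 alternatives. The remaining genes were low: Trim12a had no count, and Trim5, Trim30b and Trim30d had few.

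Their promoters are shown because 6 of these 10 genes carry the same kind of sequence near the start site. The interferon-stimulated response element is bound by interferon-activated factors, and its core was searched as GAAANNGAAA on both strands of RefSeq promoters that run from 250 bases before to 50 bases after a start site. It was present in 6 of the 10 genes of the cluster, in 3 of the 42 other members with a promoter in the table, and in 3.99% of 27025 genes. The windows below are written on the gene's strand with 20 flanking bases where the promoter allows, in GRCm38.p6 coordinates with the strand in brackets, and capitals mark the match or, where matches overlap, their union.
Trim34a, chr7:104244447-104244496 (+): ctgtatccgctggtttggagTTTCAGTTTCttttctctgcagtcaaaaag
Trim5, chr7:104288126-104288175 (-): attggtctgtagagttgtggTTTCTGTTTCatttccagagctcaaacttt
Trim12a, chr7:104315456-104315505 (-): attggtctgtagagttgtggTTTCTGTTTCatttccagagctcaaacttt
Trim12c, chr7:104353349-104353398 (-): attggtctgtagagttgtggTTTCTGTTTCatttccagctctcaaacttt
Trim30a, chr7:104465200-104465249 (-): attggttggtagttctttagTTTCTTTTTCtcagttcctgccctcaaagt
Trim30a, second start, chr7:104446094-104446143 (-): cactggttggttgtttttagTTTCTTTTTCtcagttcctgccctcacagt
Trim30d, chr7:104507861-104507910 (-): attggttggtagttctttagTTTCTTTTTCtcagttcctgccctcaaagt

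The 50 bases of Trim5 and Trim12a were identical, as were those of Trim30a (upstream start) and Trim30d, and Trim12c differed from Trim5 and Trim12a at 2 bases. The Trim30a and Trim5 windows differed from each other at 23 bases. All matches in the cluster lay on the strand opposite the gene, with the first base of the match between position -49 in Trim5 and position 11 in Trim34a and Trim12a, counting the start site as 1. The promoters of Trim6, Trim34b and Trim30b held no such match, and of these Trim34b rose and Trim6 did not pass the test. The promoter of Trim30c, which also rose, held none either. It held 1 match to TTCNNNGAA, the core of the gamma-activated site bound by STAT dimers, which was found in 9.55% of genes and in 6 of the 52 members with a promoter.
Trim30c, chr7:104400812-104400860 (-): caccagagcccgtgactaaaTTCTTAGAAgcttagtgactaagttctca

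The 3 members outside the cluster with a match to GAAANNGAAA were Trim2, Trim21 and Trim26, and the latter pair held overlapping matches.
Trim21, chr7:102565434-102565489 (-): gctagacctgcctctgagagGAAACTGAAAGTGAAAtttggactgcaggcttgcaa
Trim26, chr17:36836966-36837021 (+): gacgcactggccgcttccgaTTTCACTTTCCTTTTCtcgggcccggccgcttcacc
Trim2, chr3:84212789-84212830 (-): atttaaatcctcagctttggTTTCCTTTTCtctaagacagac

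Of the 9 members with a match, 6 were tested, and Trim2, Trim12c, Trim26, Trim30a and Trim34a rose while Trim21 did not pass the test. Among all tested genes with a match, 46.1% of 356 were called higher and 31.2% lower, and among the 9236 without one 40% were higher and 39.7% lower. A match is a description of these letters and not a mapped binding site. The table assigned promoters to 52 of the 67 members.

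Trim30a (ENSMUSG00000030921) had normalized counts of 41.5, 25.3 and 8.16 in the DMSO libraries and 94.5, 95.3 and 109 in the P3FI-90 libraries. All P3FI-90 libraries were above all DMSO libraries, which spread widely among themselves, and the log2 fold change was 1.99 (SE 0.389, adjusted p = 0.000318, edgeR). Without the first DMSO library it was 2.60. Trim30c (ENSMUSG00000078616) had no count in any DMSO library and 48.7, 36.9 and 23.5 normalized counts in the P3FI-90 libraries. Against a floor of 3 counts over the DMSO group this is at least 34.1-fold higher, a bound that covers counting error only (adjusted p = 1.51e-05, edgeR). These are the members of the cluster that changed most, and both went from little or no signal to a low level.

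Trim34a had 36.4, 51.8 and 24.5 normalized counts in DMSO and 69.2, 53.1 and 79.3 in P3FI-90, and its log2 fold change was 0.85 (SE 0.320, adjusted p = 0.0257, edgeR). Trim34b had 62.7, 50.6 and 55.1 in DMSO and 67.4, 118 and 133 in P3FI-90, or 0.91 higher on the log2 scale (SE 0.276, adjusted p = 0.00757). The groups did not overlap in either gene, as in 81.2% of all genes tested, although the nearest libraries were close. The pair shared 39.8% and 56.8% of their 50-base transcript windows with each other, so the division of reads between them is uncertain. The call on Trim34a was lost when the first or the third library of either group was left out, with adjusted p between 0.0654 and 0.112.

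The 2 genes of the cluster with the highest normalized counts moved least among those tested. Trim12c had 344, 317 and 316 normalized counts in DMSO and 443, 342 and 407 in P3FI-90, so that 1 P3FI-90 library lay within the DMSO range. The shift of 0.28 on the log2 scale (SE 0.119, adjusted p = 0.0414, edgeR) was no longer called when any library except the second P3FI-90 library was left out (adjusted p 0.0502 to 0.179), and 33.0% of its windows are shared, mainly with Trim5 and Trim12a. Trim6 had 232, 234 and 224 normalized counts in DMSO and 206, 196 and 168 in P3FI-90. Its groups did not overlap, but the log2 fold change of -0.27 (95% interval -0.58 to 0.03) did not pass the test (adjusted p = 0.0928). Trim5 stayed between 0 and 11.2 normalized counts, Trim30b at 0 in DMSO and 0 to 5.40 in P3FI-90, and Trim30d at 0 to 3.06 in DMSO and 2.81 to 6.29 in P3FI-90.

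**Figure D2:**
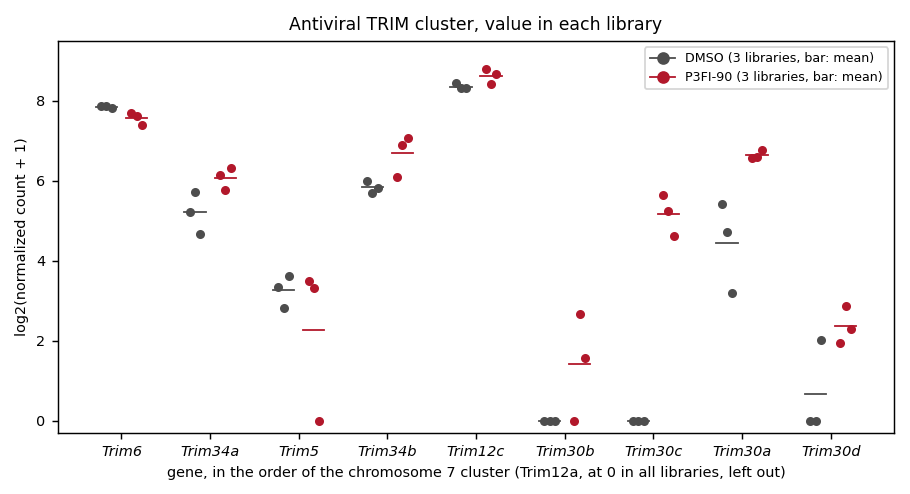
Normalized counts of 9 genes of the chromosome 7 cluster on a log2(count + 1) axis, with 1 point per library (grey DMSO, red P3FI-90) and a bar at the mean of the log2 values. Trim30a and Trim30c separate the groups widely, the Trim34 genes narrowly, and Trim12c and Trim6 stay near their DMSO level.

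The members that act on nucleic acid sensing and NF-κB signaling moved in both directions. Of the 16 genes in this list, 13 were tested, and 6 rose, 4 fell and 3 did neither, with a median log2 fold change of 0.043. These shares, 46.2% and 30.8%, lay near those of all genes tested, 39.9% and 39.4%. Trim25, which places ubiquitin chains on RIG-I, Trim56, known to act on cytosolic DNA and RNA sensing, and Trim26 and Trim23 were among those that rose. Trim14, Trim65, a ligase for the RNA sensor MDA5, Trim8 and Trim35 fell. Trim21, the intracellular antibody receptor, Trim27 and Trim13, a ligase anchored in the endoplasmic reticulum, did not pass the test.

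Trim35 and Trim25 had the highest normalized counts of this list. Trim35 had 6493, 6218 and 6633 in DMSO and 5090.3, 4923 and 5412 in P3FI-90, or -0.33 on the log2 scale (SE 0.0417, adjusted p = 5.53e-06, edgeR). Trim25 had 3739, 3647 and 3626 in DMSO and 4571, 4304 and 4321 in P3FI-90, or 0.26 on the log2 scale (SE 0.0395, adjusted p = 3.03e-05). The libraries of each group lay close together, so that these shifts of less than 1 on the log2 scale were far larger than the spread.

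Trim56 rose from a mean normalized count of 1712 ± 70.9 (SD, n = 3) to 2786 ± 126, or 0.70 on the log2 scale (SE 0.0537, adjusted p = 2.25e-08, edgeR). Trim26 rose from 1558 ± 42.0 to 2300.2 ± 145, by 0.56 on the log2 scale (adjusted p = 4.09e-07). Trim68 rose by 0.42 (adjusted p = 0.00495) and Trim23, which carries an ARF GTPase domain, by 0.29 (adjusted p = 0.000863). Each of these 4 genes had all P3FI-90 libraries above all DMSO libraries. Of all genes tested, 81.2% had no overlap between groups, in either direction. Trim14, a member without a RING finger that binds MAVS, fell by 0.70 on the log2 scale (adjusted p = 0.000805), Trim65 by 0.57 (adjusted p = 0.00227) and Trim8 by 0.52 (adjusted p = 1.92e-05). Trim14 overlaps 1356 exonic bases of Nans on the opposite strand and Trim65 overlaps 225 bases of Trim47 on the same strand in GENCODE M21, and strand use in the counting is not given in the sources used here.

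Trim40 was the tested member of this list with the largest change and the fewest counts. It had 0, 8.43 and 2.04 normalized counts in DMSO and 21.5, 9.89 and 20.6 in P3FI-90, so that the second libraries of the 2 groups nearly met. The gene entered the test only through its P3FI-90 libraries. The log2 fold change was 2.36 (SE 0.793, adjusted p = 0.0142, edgeR). It was not called once the first DMSO library (adjusted p = 0.0547), the third DMSO library (0.0597) or the first P3FI-90 library (0.0535) was dropped, and the log2 fold change was 3.93 without the second DMSO library.

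Trim21 had 206, 253 and 200 normalized counts in DMSO and 214, 197 and 267 in P3FI-90, with a 95% interval of -0.30 to 0.39 for the log2 fold change. Trim27 had 3355, 3064 and 3075 in DMSO and 3228, 3382 and 3173 in P3FI-90, with an interval of -0.06 to 0.15. Trim13 had 272, 281 and 250 in DMSO and 263, 246 and 241 in P3FI-90, with an interval of -0.36 to 0.17. The groups overlapped in these 3 genes, and for Trim27 the interval leaves room only for small shifts. Trim29 and Trim31 had too few counts to test, and Trim38 had none.

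The 3 TIF1 members described here, chromatin readers of the family, rose (39.9% of all genes tested were called higher). Trim24 (TIF1α, a nuclear receptor coregulator), Trim33 (TIF1γ, which modulates SMAD4) and Trim66 carry a PHD finger and a bromodomain that bind histone tails. Their median log2 fold change was 0.93. Trim33 (ENSMUSG00000033014) had 3807, 3852 and 3759 normalized counts in DMSO and 7175, 7233 and 7331 in P3FI-90. Trim24 (ENSMUSG00000029833) had 1323, 1177 and 1192 in DMSO and 2140.0, 2318 and 2117 in P3FI-90. Both genes separated the groups by many times the spread within them. The log2 fold change was 0.93 for Trim33 (SE 0.0335, adjusted p = 7.37e-12, edgeR) and 0.83 for Trim24 (SE 0.0598, adjusted p = 1.14e-08).

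Trim66, known mainly from the testis, was far lower, with 12.1, 6.02 and 8.16 normalized counts in DMSO and 34.6, 17.1 and 15.7 in P3FI-90. Trim66 reached the filter's count in all P3FI-90 libraries but in only 1 DMSO library. The groups did not overlap, and the log2 fold change was 1.33 (SE 0.528, adjusted p = 0.0328, edgeR). It was not called without the second DMSO library (adjusted p = 0.110), the third DMSO library (0.0902) or the first P3FI-90 library (0.208), and without the last of these the log2 fold change was 0.88.

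The members with NHL repeats, a propeller that binds RNA or protein, did not move together. Of the 4 tested, 2 rose and 1 fell (50% and 25%, against 39.9% and 39.4% of all genes tested). Trim32, a ligase mutated in a limb-girdle muscular dystrophy, and Trim2, a ligase of neurons, rose, Trim71 (LIN41), an RNA-binding regulator of stem cells and early development, fell, and Trim3 did neither. Trim71 (ENSMUSG00000079259) had 91.1, 128 and 118 normalized counts in DMSO and 34.6, 40.5 and 69.6 in P3FI-90. The highest P3FI-90 library was below the lowest DMSO library, and the log2 fold change was -1.22 (SE 0.285, adjusted p = 0.00132, edgeR). Trim32 had 1155, 1226 and 1134 in DMSO and 1629, 1532 and 1559 in P3FI-90, a log2 fold change of 0.43 (adjusted p = 8.15e-06). Trim2, whose promoter held a match to GAAANNGAAA, rose by 0.48 (SE 0.0953, adjusted p = 0.00036). Trim3 had 1009, 974 and 1057 in DMSO and 1044, 1008 and 982 in P3FI-90, with overlapping groups and a 95% interval of -0.14 to 0.13 for the log2 fold change.

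The COS box members, which bind microtubules or the sarcomere, gave no call. Of 8 genes, 3 were tested, while of all genes tested 39.9% were called higher and 39.4% lower. Trim46, which organises microtubules at the start of the axon, had 75.9, 116 and 112 normalized counts in DMSO and 88.0, 117 and 99.9 in P3FI-90. Trim36 had 85.0, 59.0 and 61.2 in DMSO and 111, 78.2 and 95 in P3FI-90, and its log2 fold change of 0.47 had an adjusted p of 0.0951. Trim54, a sarcomere-associated ligase, had 11.2 to 24.3 in DMSO and 18.0 to 25.3 in P3FI-90. The groups overlapped in all 3, and at these counts the intervals were wide, up to -0.63 to 1.30 for Trim54. Trim63, the muscle atrophy ligase, and Trim67 had counts in 1 library each, and Trim9, Trim42 and Trim55 had none.

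The largest list gathered ligases with other substrates in protein turnover and the cell cycle. Of its 18 genes, 11 were tested, and 3 rose, 5 fell and 3 did neither, with a median log2 fold change of 0.0081. The shares that rose and fell were 27.3% and 45.5%, against 39.9% and 39.4% of all genes tested. Trim39, known to regulate the anaphase-promoting complex and apoptosis, showed the clearest rise of an abundant member, while Trim16, linked to the response to damaged proteins and endomembranes, showed the clearest fall. Trim59, a membrane-bound member, Trim47, Trim37, a centriole regulator, and Trim7, a glycogenin partner, also fell, and Trim45 and Trim11 rose.

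Trim39 (ENSMUSG00000045409) had 1220.4, 1144 and 1231 normalized counts in DMSO and 2841, 2894 and 3048 in P3FI-90. Trim16 (ENSMUSG00000047821) had 1619, 1735 and 1766 in DMSO and 782, 661 and 811 in P3FI-90. In both genes the groups were separated by a wide gap, upwards in Trim39 and downwards in Trim16. The log2 fold changes were 1.29 (SE 0.0530, adjusted p = 2.84e-11, edgeR) and -1.18 (SE 0.0763, adjusted p = 3.48e-09). Trim16 shares 237 exonic bases with Fbxw10 on the same strand.

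Trim59 and Trim44 had the highest normalized counts of this list. Trim59 had 4689, 5159 and 5064 in DMSO and 2782, 2472 and 2898 in P3FI-90, or -0.87 on the log2 scale (SE 0.0573, adjusted p = 4.32e-09, edgeR). Trim44 had 4714, 4629.5 and 4910.1 in DMSO and 5006, 4869.8 and 5277 in P3FI-90, with overlapping groups and a log2 fold change of 0.09 (adjusted p = 0.0581), which passed the threshold in 6 of 15 alternatives. Trim59 thus fell by 45.3%, while Trim44 stayed within a narrow range. Trim7 fell by 0.60 on the log2 scale (adjusted p = 0.00378), Trim47 by 0.59 (adjusted p = 2.78e-07) and Trim37 by 0.49 (adjusted p = 5.03e-08). In each of them the groups did not overlap, as in 81.2% of all genes tested. Trim45 rose by 0.45 (adjusted p = 0.00117) and Trim11 by 0.34 (adjusted p = 0.000447). Trim41 had 1529 to 1617 normalized counts in DMSO and 1509.7 to 1670.2 in P3FI-90, and Trim62 had 9.19 to 16.9 and 8.82 to 18.9, with adjusted p of 0.899 and 0.852. Trim15, Trim17 and Trim72 had too few counts to test, and Trim10, Trim50, Trim52 and Trim58 had none.

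Among the tested genes of the restricted list, known mainly from germ cells or the early embryo, Trim69 had the largest log2 fold change. It is a testis-enriched member whose protein binds microtubules. Of the 8 genes, 4 were tested, and only Trim69 was called, while 39.9% of all genes tested were called higher. Trim69 entered the test only through its P3FI-90 libraries, where it was high, so the test is no independent support for its rise. Trim69 (ENSMUSG00000033368) had 3.04, 6.02 and 1.02 normalized counts in DMSO and 38.4, 44.1 and 45.1 in P3FI-90. Every P3FI-90 library was above every DMSO library, and the log2 fold change was 3.66 (SE 0.540, 95% interval 2.50 to 4.83, adjusted p = 2.32e-05, edgeR), and 4.30 without the second DMSO library. The RefSeq table holds 2 promoters of 300 bases for it, and neither held GAAANNGAAA. Trim43a, Trim43b and Trim43c, genes of the early embryo that share 42.1% to 47.7% of their windows, had 0 to 33.7 normalized counts in DMSO and 6.86 to 39.2 in P3FI-90. Their groups overlapped, with adjusted p of 0.570, 0.312 and 0.658. Trim75 had counts in 1 library, and Trim60, Trim61 and Trim80 had none.

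**Figure D3:**
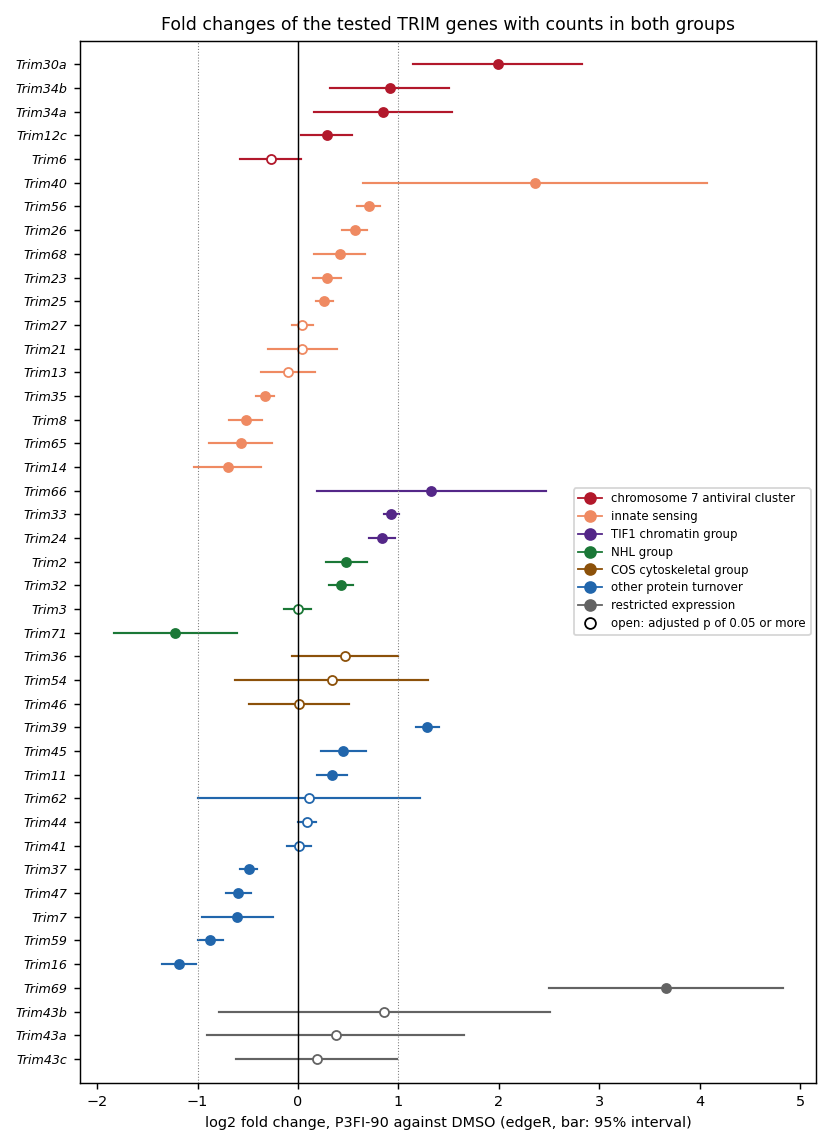
Log2 fold change (P3FI-90 against DMSO, edgeR) of the 43 tested members with counts in both groups, coloured by role, with 95% intervals as bars and open circles for members with an adjusted p of 0.05 or more. The 3 TIF1 genes lie to the right of 0, while the sensing and turnover lists spread to both sides, from 2.36 for Trim40 to -1.18 for Trim16.

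Grouped by the domain behind the coiled coil, the PRY-SPRY members gave 11 rises and 6 falls among 25 tested. These shares, 44% and 24%, were near those of all tested members, 45.5% and 22.7%. Of all genes tested, 39.9% were called higher and 39.4% lower. The PHD-bromodomain members are the TIF1 group and the NHL members the list above. Both tested members with a transmembrane segment, Trim13 and Trim59, had a log2 fold change below 0, and only Trim59 passed the test.

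Levels were compared between members here after division by exon length, as RPKM, that is reads over the length of the gene in kilobases and the depth of the library. The normalized counts used above to name the highest members of a list were not divided by length. In DMSO the highest were Trim59 at 42.3 ± 2.11 (SD, n = 3) and Trim35 at 39.8 ± 1.30, which did not differ beyond their spread, followed by Trim44 at 24.0 ± 0.727 and Trim47 at 22 ± 1.32. In P3FI-90, Trim35 at 31.8 ± 1.54 was first, Trim44 at 25.5 ± 1.05 second and Trim59 at 23.1 ± 1.87 the third, and the ranges of the latter pair met within their spread. Trim33 moved from rank 10 (11.1) to rank 5 (21.1), Trim39 from rank 18 (4.73) to rank 12 (11.6), and Trim16 from rank 11 (10.7) to rank 19 (4.69). The members with the largest log2 fold changes remained among the lowest: Trim30a rose from 0.173 to 0.690, Trim69 from 0.0507 to 0.642 and Trim40 from 0.0415 to 0.206. Of the 10 members highest in DMSO, 2 rose and 5 fell, with a median log2 fold change of -0.16, and of the other 34 tested members 18 rose and 5 fell, with a median of 0.40. Of all genes tested, 39.9% were called higher and 39.4% lower, and they were not split by level. The DMSO values set this split and also enter the fold change, so no dependence on level is read from it. The second set holds Trim30c, Trim40 and Trim69, which entered the test only through their P3FI-90 libraries. It also holds Trim30a and Trim66, which reached the filter's count in 2 and 1 of the DMSO libraries.

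**Figure D4:**
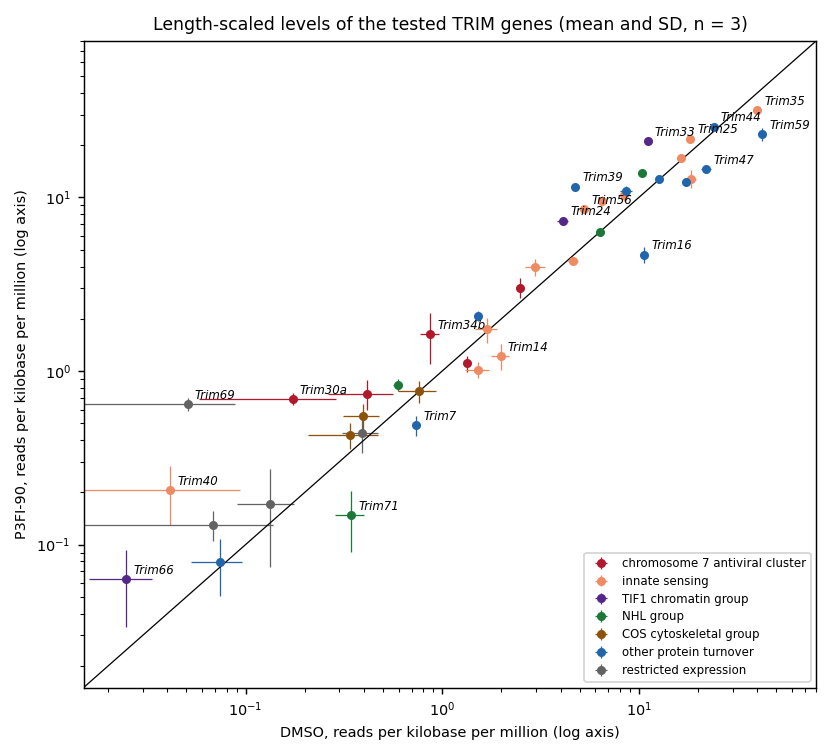
Mean level of each tested member with counts in DMSO, in RPKM on log axes, with the SD of 3 libraries as bars and the line of equal levels. Trim59, Trim16 and Trim71 lie below the line, and Trim33, Trim39, Trim69 and Trim30a above it.

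The list of TRIM proteins filed under other symbols, which also holds related genes, gave 3 rises and 2 falls among 6 tested of 9. These shares were 50% and 33.3%, against 39.9% and 39.4% of all genes tested. Cmya5 (myospryn), a large protein of striated muscle, had no count in DMSO and 82.3, 111 and 81.3 normalized counts in P3FI-90. Against a floor of 3 counts over the group this is at least 85.7-fold higher (adjusted p = 1.22e-07, edgeR). Cmya5 entered the test only through its P3FI-90 libraries, where it was high, so the test is no independent support for its rise. Bspry, a regulator of epithelial calcium transport, had 553, 525 and 610.3 in DMSO and 194, 186 and 186 in P3FI-90, or -1.58 on the log2 scale (SE 0.109, adjusted p = 7.49e-09). These changes ran in opposite directions and left no overlap between groups, as in 81.2% of all genes tested. Pml, the organiser of nuclear bodies, fell from 2689, 2428 and 2612 to 1596, 1651 and 1741 (log2 fold change -0.63, adjusted p = 1.01e-07). Mid1, a microtubule-bound ligase, rose by 0.43 (adjusted p = 0.00879), with 15% of its windows shared with other loci. Mid2 rose by 0.29 (adjusted p = 0.0231), and Rnf135, a RIG-I ligase, was not called (adjusted p = 0.162).

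The genes for ubiquitin and for the enzymes that supply TRIM ligases with it moved in both directions. Of 17 genes for ubiquitin, its activating enzyme and the E2 enzymes used by RING ligases, 10 fell and 4 rose (58.8% and 23.5%, against 39.4% and 39.9% of all genes tested), with a median log2 fold change of -0.36. Counted apart, 7 of the 13 enzyme genes fell and 4 rose, and 3 of the 4 ubiquitin genes fell and none rose. The ubiquitin gene Ubb had 23932, 22431 and 22936 in DMSO and 10293, 10687 and 10288 in P3FI-90, or -1.15 on the log2 scale (adjusted p = 1.01e-12, edgeR), and shares 48.1% of its windows with other loci. Its DMSO libraries lay far above its P3FI-90 libraries. The E2 gene Ube2d1 had 1942, 1962 and 1729.9 in DMSO and 899, 904 and 875 in P3FI-90 (log2 fold change -1.07, adjusted p = 1.02e-09). Ube2n, which with a Ube2v partner builds the ubiquitin chains of innate signaling, fell by 0.79 (adjusted p = 6.65e-11), and Uba1, the main activating enzyme, fell by 0.54 (adjusted p = 1.4e-09). The related E2 genes Ube2d2a, Ube2d3, Ube2e2 and Ube2w rose, by 0.31, 0.19, 0.67 and 0.24.

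Of 16 sensors, adaptors and kinases on which antiviral TRIM proteins act, 9 rose and 6 fell, against 39.9% and 39.4% of all genes tested, with a median log2 fold change of 0.50. Rigi, the RNA sensor modified by Trim25, had 981, 1075 and 965 normalized counts in DMSO and 3689.5, 3973 and 3805 in P3FI-90, or 1.93 on the log2 scale (SE 0.0567, adjusted p = 1.03e-12, edgeR). Traf6, the ligase of NF-κB signaling, rose from 1509.8, 1480.2 and 1460.5 to 3514, 3245 and 3536 (log2 fold change 1.21, adjusted p = 3.96e-11). Tab2 and Tab3, the targets named for Trim30a, rose by 0.90 (adjusted p = 8.56e-12) and 0.84 (adjusted p = 9.62e-10). At the RNA level they and Trim30a thus rose in the same comparison, and these counts do not measure TAB2 or TAB3 protein. The kinase Ikbke fell from 2335, 2221 and 2168 to 993, 1063 and 1045 (log2 fold change -1.12, adjusted p = 1.39e-10). Mavs fell by 0.70 (adjusted p = 2.49e-08) and Sting1 by 0.45 (adjusted p = 0.00016). Nlrp3 had 16.2, 0 and 5.10 normalized counts in DMSO and 29.0, 12.6 and 35.3 in P3FI-90. It rose with overlapping groups (log2 fold change 1.77, adjusted p = 0.0363), and it reached the filter's count in all P3FI-90 but not all DMSO libraries.

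**Figure D5:**
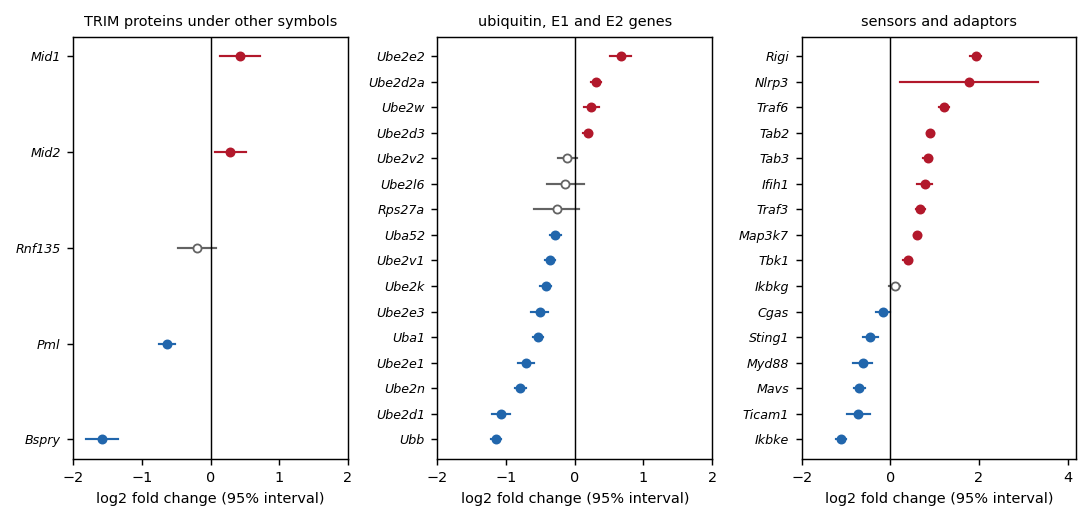
Log2 fold changes with 95% intervals for the tested genes of the 3 partner lists (Cmya5, at 0 in DMSO, and 1 gene of the ubiquitin list are not drawn), with red for higher, blue for lower and open grey for an adjusted p of 0.05 or more. Of the ubiquitin and E2 genes drawn, more lie below 0 than above it, with Ubb at -1.15 the lowest drawn, while the sensors and adaptors spread from -1.12 for Ikbke to 1.93 for Rigi.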

How the data were processed

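RNA-seq counts per gene of 6 libraries of 4T1 cells (DMSO or 10 µM P3FI-90 for 24 h, 3 each) were used as the authors deposited them, as whole numbers with no normalization. The submitters' processing notes name CASAVA, HISAT2, StringTie and the build GRCm39. The annotation and strand use are not given in the sources used here. The study names limma for its own test. Of 22401 rows, 285 unnamed assembled transcripts (0.483% to 0.556% of the counts) were left out. All 6 libraries were fitted with edgeR 4.0.16 in R 4.3.3 (filterByExpr, TMM, quasi-likelihood test, Benjamini-Hochberg over the 12288 genes tested). An exact permutation test of 3 against 3 libraries cannot give a p below 0.1 and was not used for calls. For a gene at 0 in a group, the bound assumes a group sum of 3 counts. The steps were tested on simulated data with 200 genes changed, far fewer than were called here. That test therefore does not check the scaling under a change as broad as this one.

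Exon lengths, overlaps and shared 50-base windows came from GENCODE M21, and promoters and gene order from RefSeq tables of GRCm38.p6. All 67 members had a length. Neither matches the build of the counts, so no gene coordinates are given. Of 66 member promoters, 52 end in a transcript of their gene.

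The members and lists were chosen with earlier results of these data known. Values in each library are given for members with an adjusted p under 0.05 and a log2 fold change of at least 1 in size, and for the 2 members with the highest normalized counts in each role list. Members that missed the threshold are given by range or value, and partner genes past both thresholds are named with up to 2 others by smallest p. Of the list genes, 1 past both thresholds is not reported here by name. Further genes named from the lists were chosen after their values were seen. Alternatives were DESeq2 size factors, upper quartile and total count scaling, dropping the filter or asking for 10 counts in each library, limma 3.58.1 (voom, and log2(CPM + 1)) or DESeq2 1.42.0 as the test, a replicate block, and leaving out libraries 1 at a time.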

Additional observations from a re-analysis of the deposited data

How the results depend on the processing

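Over the 15 alternatives, 16 to 25 members were called higher and 10 lower in each, and 29 of the 44 tested members changed neither call nor sign. The replicate numbers did not pair the libraries (correlations of same-numbered deviations -0.021, 0.015 and 0.0049). With the replicate block 19 members rose and 10 fell, with a median log2 fold change of 0.286, and 28 of the 30 calls were kept. Total count scaling moved the medians up with all genes, to 0.50 for the members, 0.26 for innate sensing, 1.14 for the TIF1 group, 0.43 for the NHL group, 0.55 for the COS group, 0.22 for protein turnover, 0.26 for TRIM proteins under other symbols, -0.15 for ubiquitin and E2 genes and 0.72 for sensors and adaptors. With no filter, more low genes were tested, and the medians were 0.25 for innate sensing, 0.086 for protein turnover and -0.21 for TRIM proteins under other symbols. With at least 10 counts in every library, fewer genes were tested, and the medians were 0.16 for the members, 0.59 for the antiviral cluster, -0.22 for protein turnover, -0.18 for TRIM proteins under other symbols and 0.41 for sensors and adaptors. With limma on log2(CPM + 1), where the added 1 shrinks low genes, they were 0.15 for the members, 0.55 for the antiviral cluster, 0.82 for the TIF1 group and 0.13 for the COS group. Leaving out 1 library gave 16 to 21 members higher, and medians of 0.096 to 0.65 for the COS group, 0.37 to 1.25 for the restricted list and -0.18 to 0.046 for protein turnover, so that this last median has no stable sign.

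Sign changes touched only members that were not called. Trim3 was at 0.0063 with DESeq2 size factors, 0.21 with total counts (adjusted p = 0.0074, the one member called in a new direction), 0.015 with at least 10 counts and 0.0062 in DESeq2. Trim13 was at 0.12 with total counts, and with upper quartile scaling Trim46 was at -0.030 and Trim41 at -0.031. Leaving out 1 library gave -0.17 to 0.11 for Trim46, -0.098 to 0.15 for Trim21, -0.042 to 0.034 for Trim41, -0.036 to 0.024 for Trim3, -0.18 to 0.34 for Trim62, -0.19 to 0.64 for Trim43a and -0.029 to 0.36 for Trim43c. Of the called members, 4 lost the call in some alternatives: Trim12c in 7 of 15, Trim34a in 5 of 15, Trim66 in 5 of 14 and Trim40 in 4 of 14. Calls upwards were gained by Trim44 in 6 of 15 alternatives (adjusted p down to 8.67e-06, with total counts), by Trim36 in 3, and by Trim27 and Trim41 with total counts. The cause was not tested. Depth limits the members with few counts: the intervals of Trim40, Trim43a, Trim43b, Trim43c, Trim54, Trim62, Trim66 and Trim69 each span more than 1 on the log2 scale. So do those of Trim30a, Trim30c, Trim34a, Trim34b, Trim36 and Trim71.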
